A study of Mus musculus with 4 samples.

Results

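Chaperones and heat shock proteins were followed as a gene module in mouse lymphatic endothelial cells. Members were all genes of the deposited count tables whose symbols begin with Hsp90, Hspa, Hspb, Hspd, Hspe or Hsph, Dnaja, Dnajb or Dnajc, each followed by a number, or with Cct and a digit from 2 to 8, and that held at least 20 counts in at least 1 library. Of 23337 gene symbols, 81 matched and 79 reached the minimum. Dnajb3 lay just inside it with a maximum of 20 counts, and Cct8l1 and Hspb9 lay just outside it with maxima of 15 and 10 counts. Textbook roles placed 14 members among the stress-induced genes, 9 of them cytosolic and 5 of the endoplasmic reticulum (ER), and 65 among the constitutive or otherwise unassigned ones. The latter were 8 genes for subunits of the CCT chaperonin, 10 other HSP70 and HSP90 genes, 9 mitochondrial chaperones, 11 other DNAJA and DNAJB genes, 22 other DNAJC genes and 5 other small heat shock proteins.

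The 4 groups held 1 library each. The sort took cells positive for LYVE1 (a lymphatic surface receptor) and VECAD (the cadherin of endothelial junctions) and negative for CD45, which marks leukocytes, from dorso-anterior tissue of embryos at day 14.5. The embryos were wild type or homozygous mutant, which the series' design text calls a deletion mutant, and each genotype was represented by the pooled embryos of a whole litter. A part of each sort was lysed at once (before culture). The other part spent 7 days on a feeder layer of OP9, a stromal line from mouse, with FLT3L, IL3 and SCF at 100 ng/ml each, and was sorted again for LYVE1 and VECAD, with no CD45 exclusion stated (after culture). Feeder contact, cytokines, time in culture and the second sort therefore cannot be told apart. The series is titled after a GATA2-bound enhancer, and the labels do not place the deletion. In the published study the enhancer belongs to Prox1, whose counts were 2526 in the wild type and 4483 in the mutant library before culture, with a fold of 0.96 (interval 0.914 to 1.01), and 284 and 459 after culture, with a fold of 0.664 (0.572 to 0.773).

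Molecular chaperones bind unfolded polypeptides and help them to fold, to be transported or to be degraded. HSP70 proteins work with J-domain partners (the DNAJ families) that deliver clients and stimulate ATP hydrolysis, HSP90 proteins act later on near-native clients such as kinases and steroid receptors, and the CCT chaperonin encloses actin and tubulin in a double ring. Cytosolic stress genes are switched on by the heat shock factor HSF1 through repeats of GAA in their promoters, whereas ER chaperones respond to the unfolded protein response through a composite element built on CCAAT and CCACG.

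Promoter stretches are shown for the members whose ratios or folds are described below: the stretch between the head-to-head genes of the mitochondrial chaperonin pair, the promoter of the small heat shock gene Hspb1, and those of the 2 most abundant ER chaperones. They come from RefSeq on GRCm38.p6 and run 5′ to 3′ on the strand named, with the fixed letters of the searched motif in capitals. The first lies between the start sites of Hspd1 (chr1:55087932, minus strand) and Hspe1 (chr1:55088148, plus strand), and the other 3 end at the base before the start site. Hspd1 has a further start site beyond that of Hspe1, with a search window at chr1:55088194-55088493 that did not hold the searched pair of heat shock units, GAANNTTC.
Hspe1 and Hspd1, chr1:55087933-55088147, plus strand: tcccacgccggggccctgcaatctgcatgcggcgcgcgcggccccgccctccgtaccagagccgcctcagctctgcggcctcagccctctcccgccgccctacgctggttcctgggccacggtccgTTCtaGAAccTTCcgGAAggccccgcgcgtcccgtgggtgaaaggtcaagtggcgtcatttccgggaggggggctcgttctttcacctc
Hspb1, chr5:135887769-135887918, plus strand: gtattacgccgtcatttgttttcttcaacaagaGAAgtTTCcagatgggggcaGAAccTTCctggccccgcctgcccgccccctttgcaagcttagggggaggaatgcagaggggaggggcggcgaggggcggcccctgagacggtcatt
Hspa5, chr2:34771940-34772089, plus strand: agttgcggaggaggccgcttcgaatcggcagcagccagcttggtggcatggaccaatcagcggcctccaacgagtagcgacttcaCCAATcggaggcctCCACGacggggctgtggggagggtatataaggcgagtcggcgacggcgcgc
Hsp90b1, chr10:86705445-86705664, minus strand: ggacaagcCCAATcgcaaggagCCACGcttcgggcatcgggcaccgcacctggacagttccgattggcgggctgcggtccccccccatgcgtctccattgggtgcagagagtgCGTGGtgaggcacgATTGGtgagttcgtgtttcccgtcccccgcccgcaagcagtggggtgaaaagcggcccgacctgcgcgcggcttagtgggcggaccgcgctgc

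Motifs were searched on both strands in windows from 250 bases before to 50 bases after each start site, and 64 of the 79 members had a window. The pair of heat shock units GAANNTTC was found in 15 of the 64 members (23.4%) and in 9.04% of all 27025 genes with a window, or 7.86% of all windows. The triple unit GAANNTTCNNGAA, which contains the pair, was found in Dnajb6, Hspd1, Hspe1 and Hsph1, and in 0.662% of all genes. Hspd1 and Hspe1 hold the same copies of it, since their windows overlap. The ER stress element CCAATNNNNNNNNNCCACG was found in Hspa5, Hsp90b1 and Dnajc3, against 0.137% of all genes, and Hsp90b1 held 2 copies on opposite strands. The windows of Dnajb9 and Dnajb11, the other members of the ER class, did not hold it. The pair was present in Hspa1a, Hspa1b, Hspb1, Hspb8, Hsph1 and Dnaja4 among the cytosolic stress-induced members, and also in members of other classes such as Cct2, Dnaja1, Hspb3 and Hspb6. In the cytosolic stress-induced class, Dnajb1 and Dnajb4 had windows without the pair. GAANNTTC reads the same on both strands, and the other order, TTCNNGAA, was not searched on its own. A window without the pair may therefore still hold heat shock units in that order. Hsp90aa1 had no window and was not searched. A match describes letters in a window and does not show that a factor binds there.

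Gene counts totalled 3987150 in the wild type and 7943587 in the mutant library before culture, and 1694669 and 3931557 after culture. Reads outside transcripts were gauged from 1433 olfactory and vomeronasal receptor genes, which these cells should not transcribe, and would account for 11.5%, 7.25%, 2.19% and 2.83% of the counts of these libraries in the same order. With the counts expected at that rate as the background of each gene, a member was counted as above background where the lower bound of its 95% Poisson interval exceeded 2 times that number. By this limit 59, 70, 63 and 65 of the 79 members were above background, and Dnajb3, Dnajb7, Dnajc12, Hspa1a, Hspa1l and Hspb7 were so in no library. Marker lists also moved with the groups, and their part in the chaperone results was not tested. In CPM scaled by the trimmed mean of M values (TMM), the summed level of 8 stromal genes was 3280 in wild type and 5236 CPM in mutant cells before culture and 1173 and 980.2 CPM after it, where Lum had no counts in the wild type library. For 8 immediate early genes, which tissue dissociation induces, the sums were 2697, 3356, 1339 and 1241 CPM, and for 7 striated muscle genes 103 and 158 CPM before and 35.6 and 38.9 CPM after culture. The 8 endothelial markers summed to 3753, 4002, 9359 and 8767 CPM, 7 lymphatic markers to 5879, 5442, 6614 and 5413 CPM with Ccl21a at 0 in all libraries and Pdpn at 0 in wild type cells after culture, and 6 leukocyte markers to 42.9, 46.2, 11.6 and 22.1 CPM with Cd52 and Coro1a at 0 in wild type cells after culture. The lymphatic sum joins opposite moves. Of 6 lymphatic genes tested, 4 (Prox1, Pdpn, Reln and Mmrn1) had whole intervals below 0.5 with culture in both genotypes. The interval of Lyve1 was beyond 2-fold higher in both, and that of Flt4 in wild type cells only.

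The module took a similar part of the counts in all libraries. Members held 1.30% of gene counts in both libraries before culture and 1.18% (wild type) and 1.22% (mutant) after culture. Hsp90ab1, the constitutive cytosolic HSP90 on chromosome 17 (45567775 to 45573271, minus strand, GRCm38), held 21.9% and 22.6% of the members' counts before culture and 22.2% and 21.9% after it. Its level per length, in TMM-scaled CPM per kb of exon, was 902 in wild type and 1007 in mutant cells before culture and 1286 and 1248 after culture. Hspa8, the constitutive HSP70 also called HSC70, followed with 444, 486, 743 and 731 CPM per kb. The ER-resident HSP90, Hsp90b1, came next with 384, 381, 595 and 589 CPM per kb, and Hspa5, the ER HSP70 known as BiP, after it with 268, 283, 313 and 324 CPM per kb. This order of the leading 4 genes was the same in every library, and the counting intervals of neighbours in it did not overlap. Hsp90aa1, the inducible cytosolic HSP90, had rank 5 before culture and ranks 8 (wild type) and 7 (mutant) after it. Together these 5 genes supplied 54.7% to 55.6% of all counts of the module.

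**Figure D1:**
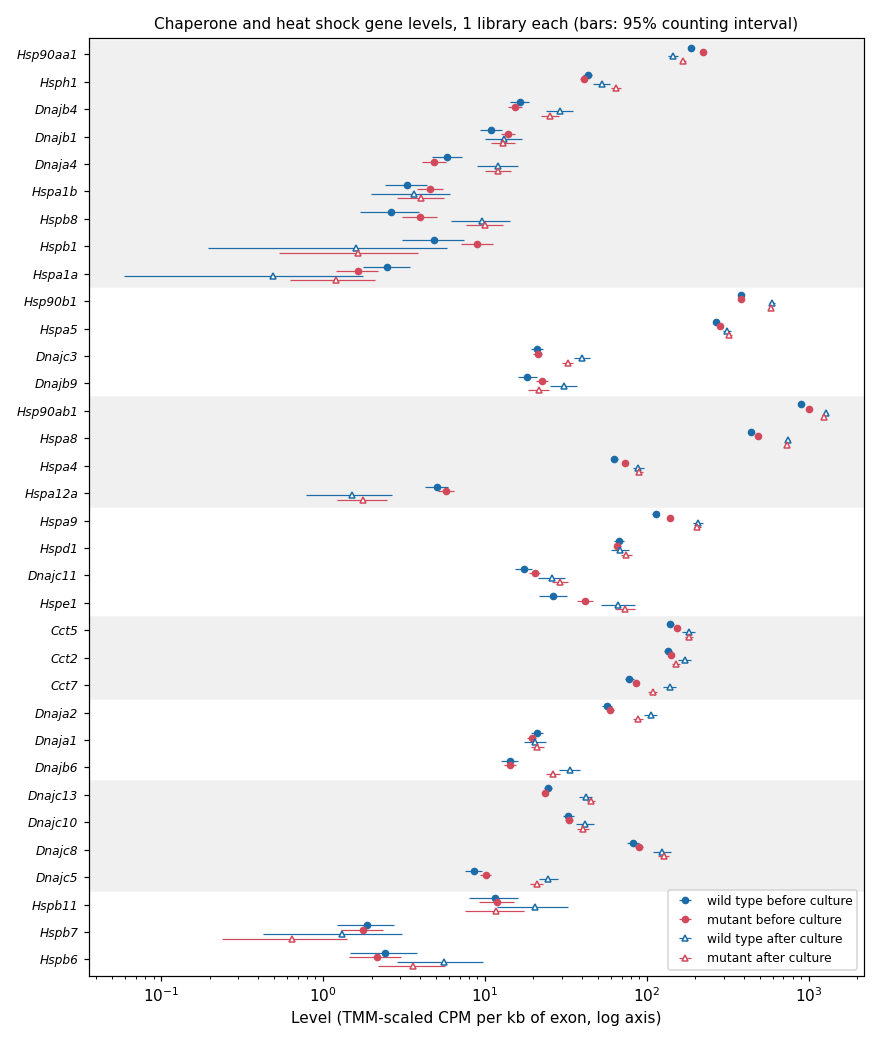
Levels of the 34 named members in each library, in TMM-scaled CPM per kb of exon on a log axis, grouped by class with alternating shading and with 95% counting intervals as bars. Hsp90ab1 lies highest in all 4 libraries (902 to 1286), and Hspb7, Hspb1 and Hspa1a lie among the lowest.

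The comparison of cells after and before culture addressed the change that accompanied 7 days on OP9 cells, separately in each genotype. A member was called where the whole 95% interval of its fold lay beyond 2-fold. In wild type cells 1 of 73 members was called higher and 0 lower, whereas 8.17% of all genes were called higher and 5.77% lower. In mutant cells 0 of 79 members were called higher and 2 lower, against 5.19% and 3.62% of all genes. The median log2 fold of the members was 0.37 in wild type and 0.19 in mutant cells, beside -0.04 and -0.10 for all genes tested. These positive medians depend on the scaling: with library totals in place of TMM every log2 fold shifts by -0.62 in wild type and by -0.45 in mutant cells, and the medians become -0.25 and -0.26. Intervals cover counting error only, and in bulk samples fewer cells of a type and less RNA per cell cannot be told apart. Directions are therefore given below for members whose interval stayed on the same side of 1 under 4 scalings (TMM, DESeq2 size factors, library totals, and TMM after background subtraction), and otherwise through ratios between members within a library, which no size factor changes. Background subtraction does change these ratios, for example from 2.49 to 2.57 for the wild type culture fold of Hspe1 over Hspd1.

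Under all 4 scalings, 11 members were above 1 and 6 below 1 in wild type cells, against 15.4% and 11.5% of the 17154 genes tested. In mutant cells 15 were above and 6 below, against 15.9% and 17.6% of 18807 genes. The 2 culture comparisons share no library. Of the members above 1, 9 were common to both, which is 81.8% of the wild type set and 60% of the mutant set, beside 77.9% and 69.1% for all genes. These were the mitochondrial genes Hspa9, Hspe1 and Dnaja3, the J-proteins Dnaja2, Dnajb6, Dnajc3 and Dnajc5, the HSP70 gene Hspa8 and the small heat shock gene Hspb8. Of the members below 1, 5 were common to both, 83.3% of either set, beside 74.2% and 44.2% for all genes, and these were Hsp90aa1, Hspa2, Hspa4l, Hspa12a and Dnajc6. The shares of all genes that meet the same criterion are not small, so the numbers of members are not set apart from the background, and the overlap of sets this small was not tested.

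Between the stress-induced and the constitutive members, the order of the culture folds depended on whether genes were weighted equally or by their counts. The 14 stress-induced members held 28.1% of the members' counts in wild type and 27.4% in mutant cells before culture and 25.8% and 26.7% after it. Their median log2 culture fold was 0.46 in wild type and 0.34 in mutant cells, and that of the constitutive members tested (59 in wild type and 65 in mutant cells) was 0.37 and 0.15. The fold of their summed counts was 1.29 (1.25 to 1.33) and 1.24 (1.22 to 1.27), beside 1.45 (1.42 to 1.48) and 1.29 (1.27 to 1.31) for the constitutive members. The stress-induced group thus had the higher median and the lower summed fold in both genotypes. The group called constitutive also holds otherwise unassigned members. Among its members are Hspd1, Hspe1 and Dnajb6, whose windows held the triple heat shock unit. With background subtracted the summed fold of the stress-induced members was 0.987 in wild type and 1.10 in mutant cells, beside 1.12 and 1.15 for the constitutive members. The cytosolic and ER genes of the stress-induced group differed, with summed folds of 0.962 (0.902 to 1.03) and 0.963 (0.925 to 1.002) for the 9 cytosolic genes and 1.44 (1.39 to 1.49) and 1.38 (1.35 to 1.41) for the 5 ER genes. With background subtracted these were 0.743 and 0.852 for the cytosolic and 1.09 and 1.21 for the ER genes. By class, median log2 folds in wild type and mutant cells ran from 0.68 and 0.49 for the ER class and 0.57 and 0.52 for the mitochondrial class, through 0.36 and 0.18 for CCT, 0.36 and 0.19 for other DNAJC and 0.33 and 0.13 for other DNAJA and DNAJB genes, to 0.26 and -0.10 for the cytosolic stress-induced class and -0.09 and -0.11 for the constitutive HSP70 and HSP90 class. The class of other small heat shock genes, with 2 genes tested in wild type and 5 in mutant cells, had medians of 0.15 and -0.89. These medians and the summed folds all carry the shift of the scaling named above.

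The 2 cytosolic HSP90 genes parted in culture. Hsp90aa1 had 3055 counts in wild type and 6704 in mutant cells before culture and 656 and 1842 after it, while Hsp90ab1 had 11327, 23391, 4453 and 10517. Per kb of exon, the ratio of Hsp90aa1 to Hsp90ab1 was 0.207 (interval 0.199 to 0.216) and 0.22 (0.214 to 0.226) before culture and 0.113 (0.104 to 0.123) and 0.135 (0.128 to 0.141) after it. Both libraries after culture thus lay below both before it, with no overlap of intervals. The ratio after culture was 0.546 (0.499 to 0.598) times that before culture in wild type cells and 0.611 (0.578 to 0.647) times in mutant cells. The TMM-scaled fold of Hsp90aa1 itself was 0.778 (0.714 to 0.847) in wild type and 0.757 (0.719 to 0.797) in mutant cells. That of Hsp90ab1 was 1.43 (1.38 to 1.48) and 1.24 (1.21 to 1.27), a direction that turns with library totals. Of the exonic 75-base stretches of Hsp90aa1, which lies on chromosome 12 (110690605 to 110702728, minus strand, GRCm38), 42.8% also occur at other loci, among them the predicted genes Gm12346, Gm5844 and Gm5511, so its level may be understated where multiply aligned reads were left out.

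**Figure D2:**
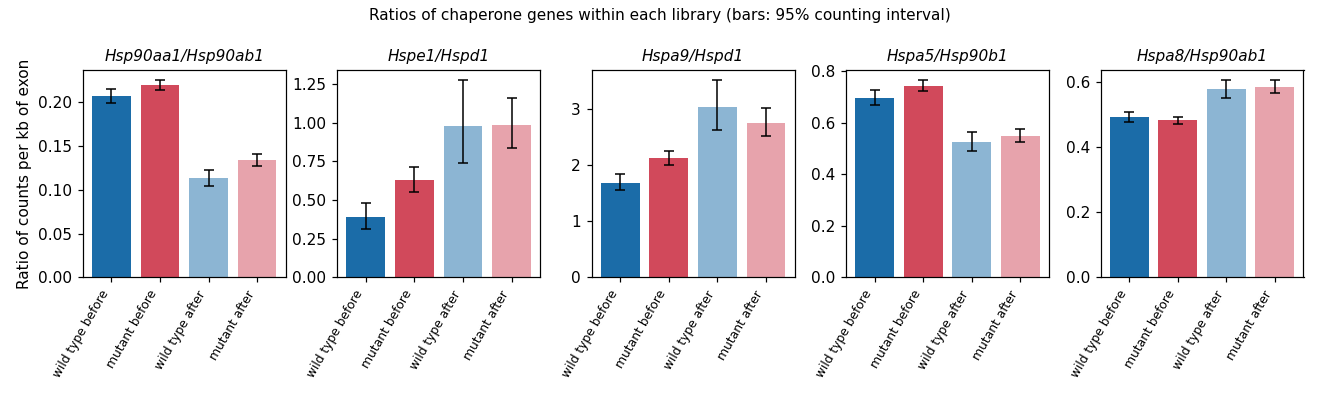
Ratios of counts per kb of exon between pairs of members within each library, with 95% counting intervals as bars. Hsp90aa1/Hsp90ab1 and Hspa5/Hsp90b1 are lower and Hspe1/Hspd1, Hspa9/Hspd1 and Hspa8/Hsp90ab1 higher in both libraries after culture than in both before it.

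The other cytosolic stress-induced genes did not follow Hsp90aa1 as a group. The 9 genes of the class held 8.66% and 9.06% of the members' counts in wild type and mutant cells before culture and 5.93% and 6.83% after it, and Hsp90aa1 supplied most of these counts in each library. Hspb1 encodes HSP27, a small heat shock protein that holds unfolding proteins in a soluble state. It had 22 counts in wild type and 75 in mutant cells before culture and 2 and 5 after it, and it was called lower in mutant cells, with a fold of 0.184 (0.058 to 0.448). In wild type cells the fold was 0.33 (0.0376 to 1.34), and the interval held 1. A pseudogene, Hsp25-ps1, and Gm9817 share 46.4% of its 75-base stretches.

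Hspb8, a small heat shock protein that works with BAG3 in selective autophagy, went the other way. It had 24 and 67 counts before culture and 24 and 61 after it, although the libraries after culture were the smaller ones, and its fold was 3.63 (1.97 to 6.67) in wild type and 2.51 (1.74 to 3.6) in mutant cells. Hsph1 (HSP110), which recharges HSP70 with nucleotide, had 817 and 1429 counts before and 277 and 826 after culture, with folds of 1.23 (1.07 to 1.41) and 1.59 (1.46 to 1.74). Only the mutant value kept its interval above 1 under all 4 scalings. The J-protein Dnaja4 had 88 and 135 counts before and 50 and 122 after culture, with folds of 2.06 (1.43 to 2.95) and 2.49 (1.93 to 3.20), and 44.1% of its exonic bases overlap Wdr61 on the opposite strand, so that reads of the 2 genes cannot be told apart where counting ignored strand. Dnajb4 had 223 and 385 counts before and 108 and 230 after, with folds of 1.76 (1.38 to 2.22) and 1.65 (1.39 to 1.94). For both genes the wild type interval reached 1 under at least 1 scaling and the mutant interval did not.

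The genes most often used to report a heat shock response were low. Hspa1a and Hspa1b encode the inducible HSP70 and are near-identical neighbours that share 54.2% and 55.8% of their exonic 75-base stretches with other loci, so their counts are uncertain. Hspa1a had 37, 45, 2 and 12 counts in the 2 libraries before and the 2 after culture and was above background by the interval limit in none, although its 12 counts in the mutant library after culture were 2.50 times the number expected. Hspa1b had 46, 119, 14 and 38 counts, and per kb its counts were 0.00742, 0.00948, 0.00489 and 0.00554 of those of Hspa8. Its culture folds were 1.10 (0.56 to 2.04) in wild type and 0.88 (0.594 to 1.28) in mutant cells, and both intervals held 1. Dnajb1 (HSP40), the J-protein that partners the inducible HSP70, had 175, 410, 58 and 139 counts, with folds of 1.20 (0.877 to 1.63) and 0.934 (0.765 to 1.13) that also held 1.

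The ER class kept its part of the module, with 19.4% and 18.4% of the members' counts before and 19.9% and 19.8% after culture. Its 2 leading genes moved relative to each other. Hsp90b1 had 5410 and 9911 counts before and 2312 and 5566 after culture, and Hspa5 had 3490 and 6821 before and 1123 and 2827 after. Per kb, the ratio of Hspa5 to Hsp90b1 was 0.697 and 0.744 before culture and 0.525 and 0.549 after it. The change was 0.753 (0.693 to 0.818) in wild type and 0.738 (0.699 to 0.78) in mutant cells. The fold of Hsp90b1 was 1.55 (1.47 to 1.63) in wild type and 1.55 (1.5 to 1.6) in mutant cells, and that of Hspa5 1.17 (1.09 to 1.25) and 1.14 (1.09 to 1.19). Library totals turn the direction of Hspa5 in both genotypes. For Hsp90b1 only the mutant interval stayed above 1 under all 4 scalings. Both promoters shown above carry the ER stress element.

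Dnajc3 (p58IPK), a J-protein that restrains the kinase PERK, had 537 and 1007 counts before and 282 and 559 after culture, with folds of 1.90 (1.64 to 2.20) and 1.53 (1.38 to 1.70) that stayed above 1 under all 4 scalings. Dnajb9 (ERdj4), a J-protein that binds the stress sensor IRE1 and BiP, had 225 and 513 counts before and 104 and 177 after. Its ratio to Hspa5 after culture was 1.44 (1.13 to 1.83) times that before in wild type cells and 0.832 (0.698 to 0.993) times in mutant cells. Dnajb11, another ER J-protein, held 398, 765, 177 and 390 counts.

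Among the constitutive HSP70 genes, Hspa8 had 5297 and 10726 counts before and 2445 and 5855 after culture. Its fold was 1.67 (1.59 to 1.76) in wild type and 1.5 (1.46 to 1.55) in mutant cells, above 1 under all 4 scalings. Its ratio to Hsp90ab1 after culture was 1.17 (1.11 to 1.25) and 1.21 (1.17 to 1.26) times that before. Hspa4, an HSP110-type exchange factor, had 1450, 3144, 565 and 1391 counts, with folds of 1.41 (1.28 to 1.56) and 1.22 (1.14 to 1.30) whose direction depended on scaling. Hspa14, a ribosome-associated HSP70, had 203, 396, 90 and 189 counts, Hspa13, a microsomal one, 278, 501, 63 and 179, and Hspa12b, a relative of Hspa12a known from endothelium, 270, 622, 69 and 198. None of these was called. Of the genes that were lower, Hspa12a, a divergent HSP70 on chromosome 19 (58795750 to 58943654, minus strand), had 145 and 306 counts before and 12 and 34 after culture. It was called lower in mutant cells at 0.306 (0.208 to 0.437). The wild type fold was 0.3 (0.152 to 0.54), which missed the call by the upper bound of its interval, so the 2 genotypes are not shown to differ. Hspa2, best known from the testis, had 147 and 284 counts before and 24 and 37 after, and Hspa4l had 379 and 584 before and 69 and 141 after. Their folds were 0.592 (0.367 to 0.915) and 0.66 (0.503 to 0.855) in wild type and 0.359 (0.248 to 0.507) and 0.665 (0.549 to 0.801) in mutant cells.

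The mitochondrial chaperones held 6.35% and 6.77% of the members' counts before and 7.22% and 7.49% after culture. Hspa9 (mortalin), the motor of protein import into the matrix, had 1728 and 3912 counts before and 868 and 2101 after. Its fold was 1.82 (1.68 to 1.98) in wild type and 1.48 (1.40 to 1.56) in mutant cells, above 1 under all 4 scalings. Hspd1 (HSP60) and Hspe1 (HSP10) form the barrel and the lid of the mitochondrial chaperonin. They have start sites on either side of the stretch of 215 bases shown above, and Hspd1 has a further start site outside it. Hspd1 had 816 and 1469 counts before and 228 and 607 after culture, and Hspe1 had 102 and 296 before and 71 and 191 after.

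The 2 transcripts did not keep a fixed ratio. Per kb, Hspe1 stood at 0.391 (0.315 to 0.481) of Hspd1 in wild type and at 0.631 (0.555 to 0.715) in mutant cells before culture. After culture the ratio was 0.975 (0.736 to 1.28) and 0.985 (0.833 to 1.16). The change with culture was 2.49 (1.78 to 3.49) in wild type and 1.56 (1.27 to 1.92) in mutant cells, and the 2 libraries before culture also differed, by 1.61 (1.27 to 2.05). After culture the ratio in mutant over that in wild type cells was 1.01 (0.74 to 1.38), an interval that holds 1. Hspa9 relative to Hspd1 changed by 1.80 (1.52 to 2.13) and 1.30 (1.17 to 1.45) with culture. Processed copies at other loci share 29.6% of the 75-base stretches of Hspd1 and 11.9% of those of Hspe1, and the annotated exons of the 2 genes overlap at their heads. The J-protein Dnaja3, which serves Hspa9, had 162 and 347 counts before and 105 and 214 after culture. Dnajc11, a component of the inner membrane organising system, had 273, 590, 112 and 308 counts, with folds of 1.49 (1.18 to 1.86) and 1.44 (1.25 to 1.65) that library totals bring below 1 in wild type cells.

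The CCT subunits, which fold actin and tubulin as a ring of 8 different proteins, showed no call. They held 12.9% and 12.8% of the members' counts before and 12.3% and 11.5% after culture. Their levels differed although the ring takes equal numbers of each: per kb, Cct5 was the highest of the 8 CCT members in every library at 140, 153, 182 and 183 CPM, followed by Cct2 at 136, 142, 172 and 152 CPM, while Cct4 lay at 48.3, 51.7, 75.3 and 59.7 CPM. Tcp1, the remaining subunit and not a member of the module, lay above all of these at 171, 187, 192 and 195 CPM per kb. Cct6b, a testis-type copy of the zeta subunit, was lowest with 36, 57, 2 and 14 counts, beside 1030, 2005, 287 and 805 counts of Cct6a. Culture folds of Cct5 were 1.30 (1.17 to 1.45) in wild type and 1.19 (1.11 to 1.28) in mutant cells, and those of Cct2 1.26 (1.13 to 1.41) and 1.07 (0.992 to 1.15). Neither gene kept its interval above 1 under all 4 scalings in either genotype. Cct7 had 951 and 1935 counts before and 465 and 890 after culture. Its fold of 1.77 (1.58 to 1.98) in wild type cells was above 1 under all 4 scalings, and that of 1.27 (1.17 to 1.37) in mutant cells was not.

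Among the remaining J-proteins, Dnajc5 carried the 1 call of the wild type comparison. It encodes cysteine string protein, a palmitoylated co-chaperone of vesicle exocytosis. The gene lies on chromosome 2 (181520485 to 181555133, plus strand). It had 286 and 626 counts before and 228 and 470 after culture, and its fold was 2.89 (2.42 to 3.45) in wild type and 2.07 (1.83 to 2.34) in mutant cells. The call in wild type cells was lost with library totals, where the fold was 1.88, while the interval stayed above 1. Dnajb6, which suppresses polyglutamine aggregation, had 295, 551, 191 and 367 counts and folds of 2.35 (1.95 to 2.83) and 1.84 (1.6 to 2.1). Dnaja2, a cytosolic partner of HSC70, had 831, 1598, 424 and 866 counts and folds of 1.85 (1.64 to 2.08) and 1.49 (1.37 to 1.62). Its relative Dnaja1 had 606, 1039, 162 and 409 counts and folds of 0.969 (0.81 to 1.15) and 1.08 (0.965 to 1.22), whose intervals held 1.

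Other DNAJC genes ranged widely. Dnajc13, an endosomal protein, had 982, 1743, 465 and 1213 counts and folds of 1.72 (1.53 to 1.92) and 1.92 (1.78 to 2.06). Only its mutant interval stayed above 1 under all 4 scalings. Dnajc8, a spliceosome-associated member, and Dnajc10, an ER disulphide reductase, had folds of 1.52 (1.30 to 1.77) and 1.27 (1.09 to 1.48) in wild type and of 1.43 (1.29 to 1.58) and 1.21 (1.10 to 1.34) in mutant cells. For Dnajc8 and Dnajc10 the interval did not stay above 1 under all 4 scalings in either genotype. Dnajc6, the neuronal-type uncoating factor auxilin, was lower, with 112 and 153 counts before and 8 and 19 after culture and folds of 0.259 (0.109 to 0.528) and 0.342 (0.2 to 0.553). Over all 22 genes of this class, levels before culture in wild type cells ran from 1.88 (Dnajc12, not above background by the interval limit in any library) to 82.2 CPM per kb (Dnajc8), with a median of 7.57, and after culture from 0 (Dnajc22) to 125 CPM per kb (Dnajc8), with a median of 11.6. Dnajc22 had 24 and 40 counts before culture and 0 and 6 after it. It had no call in either genotype, and the upper bound of its wild type fold was 0.602. In the class of 11 other DNAJA and DNAJB genes, Dnaja2 had the highest level in every library (57.1, 59.4, 106 and 88.7 CPM per kb), and Dnajb3, Dnajb7, Dnajb8 and Dnajb13 had at most 60 counts in any library and no call. The 5 other small heat shock genes held 0.119% to 0.199% of the members' counts. This class was formed by the Hspb symbol alone. Hspb11 reached 35, 67, 17 and 24 counts and had the highest level per kb of the class in every library. Hspb6 reached 19, 31, 12 and 19 and Hspb7 26, 45, 5 and 6, and the highest count of Hspb2 and Hspb3 was 30. Culture folds of Hspb11 held 1 in both genotypes.

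**Figure D3:**
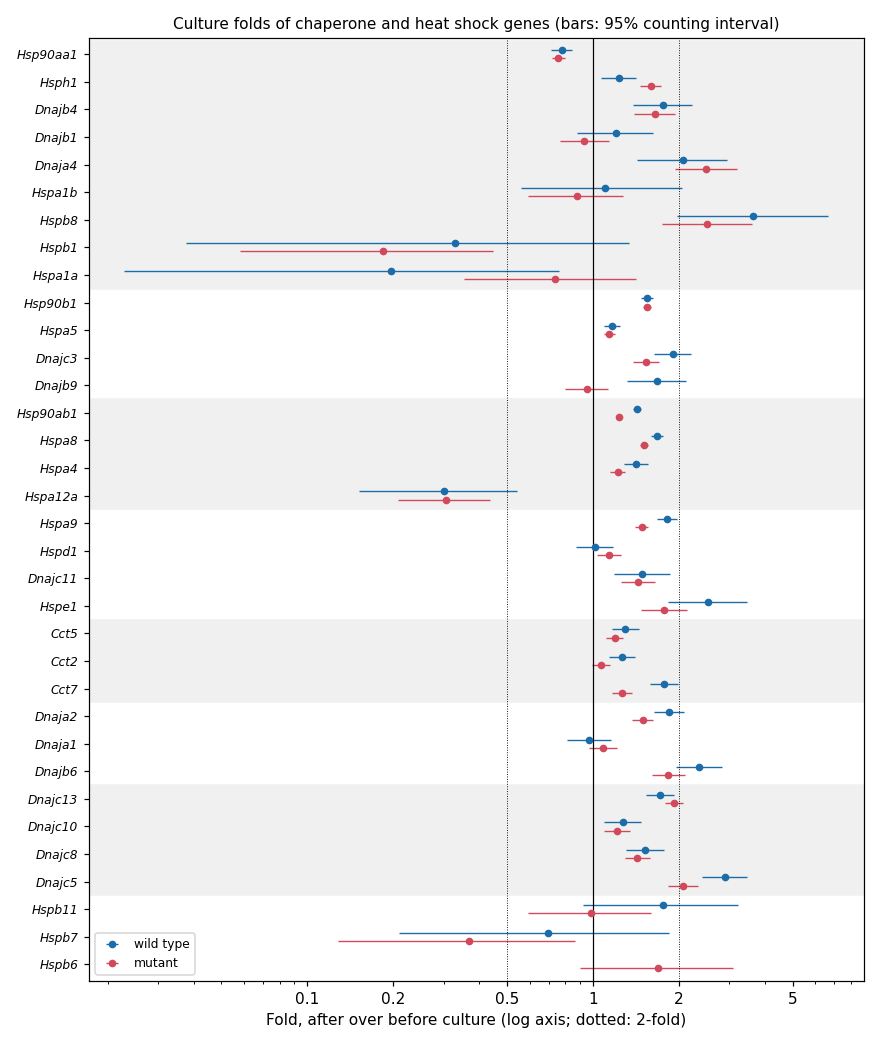
Fold after over before culture of the 34 named members in each genotype, from TMM-scaled counts on a log axis, with 95% counting intervals as bars and dotted lines at 2-fold. A member with fewer than 20 counts in both libraries has no point. Dnajc5 in wild type lies wholly above 2-fold, and Hspb1 and Hspa12a in mutant lie wholly below 0.5.

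Setting mutant beside wild type cells addressed the effect of the deletion. Before culture 0 of 79 members were called higher and 0 lower, when 0.0158% and 0.0475% of all genes were called. After culture 0 of 62 members with enough counts were called higher and 0 lower, when 0.244% and 0.0731% of all genes were called. The calls of all genes were thus too rare for the absence of called members to set them apart. The median log2 fold of the members was 0.06 before and -0.02 after culture, beside 0.04 and 0.00 for all genes tested. Hsp90ab1 had a fold of 1.12 (1.09 to 1.14) before culture, which background subtraction brought to 0.998, and of 0.971 (0.937 to 1.01) after it. With 1 library per genotype, none of these differences can be weighed against the variation between litters.

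Smaller differences that kept their side of 1 under all 4 scalings were few. Before culture they numbered 4 above 1 and 2 below 1 of 79, beside 7.99% and 5.97% of all genes. Hsp90aa1 had a fold of 1.19 (1.14 to 1.24), Hspa9 of 1.22 (1.16 to 1.30), Hspe1 of 1.57 (1.25 to 1.99) and Hspb1 of 1.84 (1.13 to 3.12). Dnajc6, at 0.739 (0.575 to 0.951), and Hspa4l, at 0.833 (0.731 to 0.951), were on the other side. The stromal and immediate early markers given above were also higher in this mutant library, and their part in these folds was not tested.

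After culture 3 members were above 1 and 6 below 1 of 62, beside 5.48% and 8.58% of all genes. Those above were Hsp90aa1 at 1.15 (1.06 to 1.26), Hsph1 at 1.23 (1.07 to 1.41) and Dnajc17, which rests on 10 and 55 counts, at 2.26 (1.14 to 4.97). Those below were Dnajb9 at 0.70 (0.546 to 0.90), Cct7 at 0.787 (0.702 to 0.882), Dnajb6 at 0.79 (0.661 to 0.946), Cct4, Dnajc3 at 0.815 (0.705 to 0.944) and Dnaja2 at 0.84 (0.747 to 0.945). Hsp90aa1 was thus the only member on the same side in both genotype comparisons. The share of all genes on the same side in both was not counted, so this member is not set apart from the background. The 2 comparisons share no library, but the libraries of a genotype before and after culture come from the same sort. They are therefore not independent. The ratio of Hsp90aa1 to Hsp90ab1 in mutant cells was 1.06 (1.01 to 1.12) times that in wild type cells before and 1.19 (1.08 to 1.31) times after culture.

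**Figure D4:**
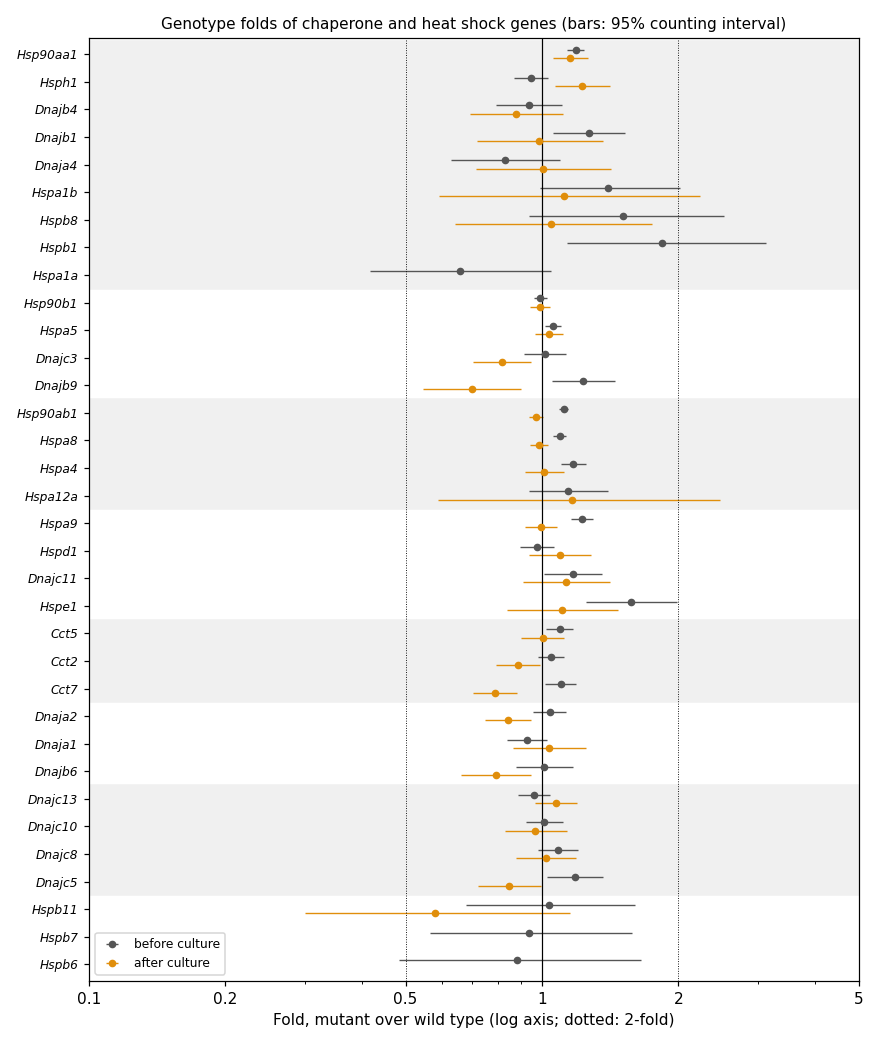
Fold of mutant over wild type of the 34 named members before and after culture, from TMM-scaled counts on a log axis, with 95% counting intervals as bars and dotted lines at 2-fold. A member with fewer than 20 counts in both libraries has no point. No interval lies wholly beyond 2-fold, and the lowest fold of the ER class is that of Dnajb9 after culture, at 0.70.

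The difference between the genotypes in the culture fold was measured as a ratio of folds in the 78 members with counts in every library. The interval lay wholly above 1 in 2 members and wholly below 1 in 16, beside 6.31% and 15.7% of 17910 genes, and in 0 members beyond 2-fold. Scaling decided much of this: with library totals the numbers were 10 and 4, beside 11.8% and 8.12% of all genes. On the same side under all 4 scalings were Cct7, Dnajb9, Dnajb12 and Dnajc5 below 1 and Hsph1 and Dnajc17 above 1, when 7.35% of all genes held below 1 and 3.29% above. For Hsph1, the culture fold in mutant cells was 1.30 (1.10 to 1.52) times that in wild type cells.

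Genes outside the module that act on it were read from lists, with 8.17% of all genes called higher in wild type and 5.19% in mutant cells as the background of their culture calls. With library totals no gene of these lists was called higher in culture, and the calls below are those with TMM. None of 6 heat shock factor genes was called in any comparison. With culture the TMM interval lay wholly above 1 in 2 of them and wholly below 1 in 2, in either genotype. Under all 4 scalings it was above 1 in 0 of them in wild type and 1 in mutant cells. It was below 1 in 1 gene in each genotype. Hsf1, the main activator of the heat shock genes, had 154 and 281 counts before and 71 and 232 after culture, with folds of 1.67 (1.24 to 2.23) in wild type and 2.27 (1.9 to 2.72) in mutant cells. Hsbp1, a small negative regulator of HSF1, had folds of 1.62 (1.24 to 2.09) and 1.58 (1.35 to 1.86). Of 20 co-chaperones of HSP70 and HSP90, 2 were called higher with culture in wild type cells and 1 in mutant cells, numbers near that background. Fkbp5, an HSP90-bound immunophilin and glucocorticoid target, had folds of 2.77 (2.18 to 3.51) and 2.35 (2.005 to 2.75), and Bag6, a holdase for tail-anchored proteins, 2.54 (2.27 to 2.85) and 1.43 (1.32 to 1.55), the second of them without a call. With library totals their wild type folds were 1.80 and 1.65. Of 20 genes of the unfolded protein response, 4 were called higher in wild type cells and 1 in mutant cells, and with background subtracted 2 and 0. The whole interval was above 1 under all 4 scalings in 8 of them in wild type and 12 in mutant cells, beside 15.4% and 15.9% of all genes. It was below 1 in 1 gene in each genotype, beside 11.5% and 17.6% of all genes. This was Ppp1r15a, with TMM folds of 0.526 in wild type and 0.487 in mutant cells. Atf4 had a fold of 2.40 (2.12 to 2.70) in wild type and of 1.53 (1.41 to 1.66) in mutant cells, Sel1l of 2.40 (2.12 to 2.71) and 1.83 (1.67 to 1.997), and Xbp1 of 3.18 (2.64 to 3.84) and 2.13 (1.88 to 2.42). Syvn1, the ubiquitin ligase of ER-associated degradation, was called in both, at 3.01 (2.30 to 3.94) and 2.43 (2.06 to 2.87). With library totals the wild type folds were 1.55 for Atf4, 1.56 for Sel1l, 2.06 for Xbp1 and 1.95 for Syvn1. Hspa5, which the same response controls, differed by 1.17 and 1.14 in these comparisons.

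Of 10 genes of mitochondrial quality control, 1 was called higher in wild type cells, the protease subunit Spg7 at 2.43 (2.07 to 2.83), and 0 in mutant cells. The fold of Spg7 was 1.57 with library totals. Of 8 measured genes among prefoldin, its relatives and Tcp1, which encodes the remaining CCT subunit, none was called. Tcp1 had 2124 and 4294 counts before and 658 and 1633 after culture, with folds of 1.12 (1.03 to 1.23) and 1.05 (0.989 to 1.11), and Pfdn5 folds of 2.14 (1.68 to 2.71) and 1.46 (1.25 to 1.71). No gene of these lists was called lower in culture with TMM, and none was called in either direction between genotypes. Ppp1r15a was called lower in both genotypes with library totals and with background subtracted. With library totals 2 heat shock factor genes were also called lower in wild type cells.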

How the data were processed

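Per the labels' protocols, total RNA of 4 sorted populations was made into stranded libraries with paired reads of 75 nt. The authors deposited raw counts for 23337 gene symbols. The submitters' processing notes list bcl2fastq, STAR, HTSeq 0.11.2 and the build mm10, and the table names record duplicate removal with sambamba. Annotation and strand setting: not given in the sources used here. The 5 HTSeq summary classes were kept out of totals; among them reads in no gene made up 66.5%, 53.6%, 20.0% and 30.3% of all entries, unaligned reads 21.4%, 34.1%, 67.6% and 56.2%, and gene counts 7.94%, 8.79%, 9.94% and 10.5%, in the order wild type before, mutant before, wild type after and mutant after culture.

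Counts were scaled with TMM factors of edgeR 4.0.16 in R 4.3.3 (1.25, 1.16, 0.811 and 0.851 in the same order). Levels carry exact Poisson 95% intervals. Folds carry 95% Clopper-Pearson intervals, computed from the binomial share of either library in the summed counts, and ratios of ratios carry log-scale Poisson intervals. They cover counting error only, since reads without molecular identifiers are not independent molecules. With 1 library per group there is no test and no p-value, and every comparison is between libraries. A call needed the entire interval outside 2-fold and a minimum of 20 counts in either library. Alternatives were DESeq2 1.42.0 size factors, library totals, no minimum count, a minimum of 50, background subtraction, 3 counts in place of 0 and a limit of 1.5-fold. Log2 folds behind the medians use a prior count of 2. Exon lengths come from GENCODE vM21 (GRCm38, the assembly of mm10), over transcripts paired with RefSeq, and were found for 98.0% of symbols. The calling was checked on simulated data of known folds.

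The members, their classes and all gene lists were chosen with earlier results of these data known. Named members are those called in a comparison, the 3 with the most counts in each class, all cytosolic stress-induced members and a set of well-known genes, 34 in all. Other members given with values were chosen after their values were seen: Cct4, Cct6a, Cct6b, Dnaja3, Dnajb11, Dnajb12, Dnajc6, Dnajc17, Dnajc22, Dnajb3, Dnajb7, Dnajb8, Dnajb13, Dnajc12, Hspa2, Hspa4l, Hspa12b, Hspa13, Hspa14, Hspb2 and Hspb3. The other lists are represented by their called genes (at most 3, by counts) or, without calls, by their 2 most counted genes. Syvn1, the only gene of the unfolded protein response list called in both genotypes with TMM, and Ppp1r15a were added after their values were seen.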

Additional observations from a re-analysis of the deposited data

Results flagged for a closer look

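For 3 members the fold of mutant over wild type was above 1 before culture and below 1 after it, by intervals of TMM-scaled counts. With 1 library per group the difference was not tested against any variation between samples. The share of all genes that changed side in this way was not counted. The fold after culture divided by that before was 0.715 for Cct7, from 1.10 (1.02 to 1.19) to 0.787 (0.702 to 0.882). It was 0.567 for Dnajb9, from 1.23 (1.05 to 1.45) to 0.70 (0.546 to 0.90), and 0.716 for Dnajc5, from 1.18 (1.03 to 1.37) to 0.847 (0.722 to 0.997). The values before culture rest on the scaling: with library totals they were 1.02, 1.14 and 1.10, and at least 1 of the 4 scalings brought each interval to 1. The ratio of the folds stayed below 1 for all 3 under all 4 scalings, as it did for 7.35% of 17910 genes. The 3 members were picked by their change of side, so a ratio below 1 follows in part from that choice.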

How the results depend on the processing

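No paired analysis was possible because each group holds 1 library. The 2 genotype comparisons had 0 called members in each direction under all 7 alternatives. In wild type cells after against before culture, the 1 member called higher became 4 with DESeq2 size factors, 0 with library totals, 2 with background subtracted and 12 at 1.5-fold, and the 0 called lower became 5 with library totals and 4 at 1.5-fold. In mutant cells the 0 called higher became 5 at 1.5-fold, and the 2 called lower became 5 with library totals, 3 with background subtracted and 5 at 1.5-fold. Both members called lower in mutant cells, Hspa12a and Hspb1, kept the call under all 7. Library totals shift every log2 fold by -0.62 (wild type) and -0.45 (mutant) in culture and by -0.11 and 0.07 between genotypes before and after culture. Background subtraction shifts them by -0.41, -0.19, -0.16 and 0.06 through the size factors alone. It also lowers the counts of each gene, so its full shift differs between genes. The members' median log2 culture fold moved from 0.37 to 0.21 in wild type and from 0.19 to 0.02 in mutant cells. Summed over members, the culture fold was 1.41 in wild type and 1.28 in mutant cells with TMM and 1.08 and 1.13 after background subtraction. The scaling that describes the cells was not tested. Depth limits the low members: in the smallest library 3 counts, the limit that 0 allows, equal 2.18 CPM.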
